A study of Homo sapiens with 2 samples.

Results

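The miR-17, miR-18, miR-19 and miR-106 miRNAs were compared between 2 small RNA libraries of MDA-MB-231-IV2-1 cells. They were chosen by name, as every listed miRNA with the stem miR-17, miR-18a, miR-18b, miR-19a, miR-19b, miR-20a, miR-20b, miR-93, miR-106a or miR-106b, from either arm of the hairpin. The rule gave 14 of the 425 miRNAs listed in either library. The set was selected on the same comparison that is described here, with its values already known, so the differences are given as a description and no test was run on them.

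MDA-MB-231-IV2-1 was derived by passage through mice from MDA-MB-231, a human triple-negative breast cancer line, and metastasizes more readily. The labels give the parental line as the cell line, and the titles give IV2. The control cells received the scrambled siRNA (N.C), the knockdown cells received the pooled siRNAs against the long non-coding RNA LOC550643, and RNA was taken from both 48 h after transfection. The study used this comparison to look for miRNAs whose level depends on LOC550643. Each condition has 1 library of a single cell line, so no difference has a replicate check, the effect of the siRNA and that of the library cannot be told apart, and the level of LOC550643 was not analysed here.

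A miRNA precursor folds into a hairpin whose 5′ arm (5p) and 3′ arm (3p) can each give a mature miRNA, and the mature miRNA finds its target mRNAs mainly through its seed, bases 2 to 8. The miR-17-92 cluster and its paralogs miR-106b-25 and miR-106a-363 encode several hairpins on a shared primary transcript. They are activated by MYC and E2F factors, their known targets include the cell cycle inhibitor CDKN1A and the pro-apoptotic protein BIM, and miR-17-92 is known as an oncogenic cluster in lymphoma and in solid tumours.

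The mature sequences, taken from RefSeq (GRCh38.p14), are shown with the seed in capitals because the seed defines the families compared here. The first 6 lines are the 5p miRNAs with the seed AAAGUGC, which carry most of the differences described. The next line is the 3p arm of the miR-106b hairpin, the most abundant of the 14, and the last 3 lines belong to the miR-18 and miR-19 families.
hsa-miR-17-5p: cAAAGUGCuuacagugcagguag
hsa-miR-106a-5p: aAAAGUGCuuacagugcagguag
hsa-miR-20a-5p: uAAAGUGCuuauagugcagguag
hsa-miR-20b-5p: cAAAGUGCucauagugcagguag
hsa-miR-93-5p: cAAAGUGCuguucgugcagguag
hsa-miR-106b-5p: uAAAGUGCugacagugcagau
hsa-miR-106b-3p: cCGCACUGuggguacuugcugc
hsa-miR-18a-5p: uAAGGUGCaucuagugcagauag
hsa-miR-19a-3p: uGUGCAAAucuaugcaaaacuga
hsa-miR-19b-3p: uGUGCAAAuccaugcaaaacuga

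The AAAGUGC 5p arms differ from each other at base 1 or after the seed. With positions counted from 1 at the 5′ end and the base of the first-named miRNA first, hsa-miR-17-5p and hsa-miR-106a-5p differ at 1 of 23 bases (C1A), and hsa-miR-17-5p and hsa-miR-20a-5p at 2 (C1U and C12U). The sequence of hsa-miR-93-5p differs from that of hsa-miR-17-5p at 4 bases (U10G, A11U, C12U and A13C), all after the seed. The miR-19 pair, hsa-miR-19a-3p and hsa-miR-19b-3p, differs at 1 base (U11C). All 14 had a mature sequence in RefSeq, as did 350 of the 425 listed miRNAs, and among those 350 no other had the seed of the miR-17, miR-18 or miR-19 family. The same hairpins have 20 mature arms in RefSeq, and 6 of these were listed in neither library, namely hsa-miR-18b-5p, hsa-miR-18b-3p, hsa-miR-19a-5p, hsa-miR-19b-2-5p, hsa-miR-20a-3p and hsa-miR-20b-3p.

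On GRCh38 the miR-17-92 hairpins lie at chr13:91350605-91351391 on the plus strand, 6 hairpins within 787 bases of the long non-coding host gene MIR17HG, in intron 3 of its transcript MIR17HG-201 and in the last exon of MIR17HG-202 and MIR17HG-203. The 3 hairpins of miR-106b-25 lie at chr7:100093560-100094074 on the minus strand, within 515 bases of intron 13 of MCM7-201, a transcript of the replication licensing gene MCM7. The 6 hairpins of miR-106a-363 lie at chrX:134169378-134170278 on the minus strand, within 901 bases of the processed transcript gene AC002407.1. Because hsa-miR-19b-3p has a hairpin in both the first and the last of these clusters, its reads have no single origin.

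Levels are reads scaled to a fixed total of 1000000 for each library (RPM), and the depth decides how far they can be read. From the step between low values, 1 read was worth 5.29 RPM in the control and 2.03 RPM after knockdown, and this puts about 189034 and 491541 reads on miRNAs, so the knockdown library was 2.60-fold deeper. The floor of 3 reads was 15.9 RPM and 6.10 RPM, respectively. The 14 miRNAs made up 0.289% of the control total and 0.236% of the total after knockdown, where 14 and 10 of them were listed. In brackets behind each level are its estimated reads and an exact 95% Poisson interval, and every interval given here covers counting error only. Log2 ratios are knockdown over control, as differences of log2(RPM + 1), which understates the change of low values. Ratios and folds not given as log2 are plain quotients of the RPM. The intervals of all ratios come from the exact binomial share of the reads, without the added 1 RPM.

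hsa-miR-106b-3p, the 3p arm of the miR-106b hairpin, was by far the most abundant and had nearly the same level in both libraries. It was at 2010 RPM in the control (380 reads, 1813 to 2223) and at 1973 RPM after knockdown (970 reads, 1851 to 2102), ranks 30 and 33 of their library. The log2 ratio was -0.03, with an interval of -0.20 to 0.15, and no difference was detectable at this depth.

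The next 3 in abundance were 5p arms with the seed AAAGUGC, and for each the control value lay above the knockdown value with no overlap of the intervals. hsa-miR-93-5p, from the MCM7 intron, was at 333 RPM in the control (63 reads, 256 to 426) and at 157 RPM after knockdown (77 reads, 124 to 196), a log2 ratio of -1.08 (-1.59 to -0.59). hsa-miR-20a-5p, from miR-17-92, was at 206 RPM (39 reads, 147 to 282) against 67.1 RPM (33 reads, 46.2 to 94.3). It was 3.07-fold lower after knockdown, a log2 ratio of -1.61 (-2.33 to -0.91), the furthest from 0 of these 3. hsa-miR-17-5p, the first miRNA of miR-17-92, was at 204 RPM (38.5 reads, 147 to 282) against 96.6 RPM (47.5 reads, 72.0 to 130), a log2 ratio of -1.07 (-1.72 to -0.43). The log2 intervals of hsa-miR-93-5p, hsa-miR-20a-5p and hsa-miR-17-5p all exclude 0 and overlap each other. Both hsa-miR-93-5p and hsa-miR-17-5p lie just past a 2-fold difference. All 3 also moved down in the order of miRNAs within a library, hsa-miR-93-5p from rank 78 to 101, hsa-miR-20a-5p from 98 to 132 and hsa-miR-17-5p from 100 to 119.

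The other 5p arm of this family with more than 3 reads in both libraries was hsa-miR-106b-5p, at 47.6 RPM in the control (9 reads, 21.8 to 90.4) and 32.6 RPM after knockdown (16 reads, 18.6 to 52.9). Its log2 ratio of -0.53 had an interval of -1.81 to 0.81, which holds both no difference and a difference as large as those of hsa-miR-93-5p and hsa-miR-17-5p. The values of hsa-miR-106a-5p were 7.94 RPM (1.5 reads) and 1.02 RPM (0.5 reads), and hsa-miR-20b-5p had 1 control read (5.29 RPM) and is missing from the knockdown library. Both come from the chromosome X cluster, both were at or under 3 reads in each library, and no ratio is given for them.

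**Figure D1:**
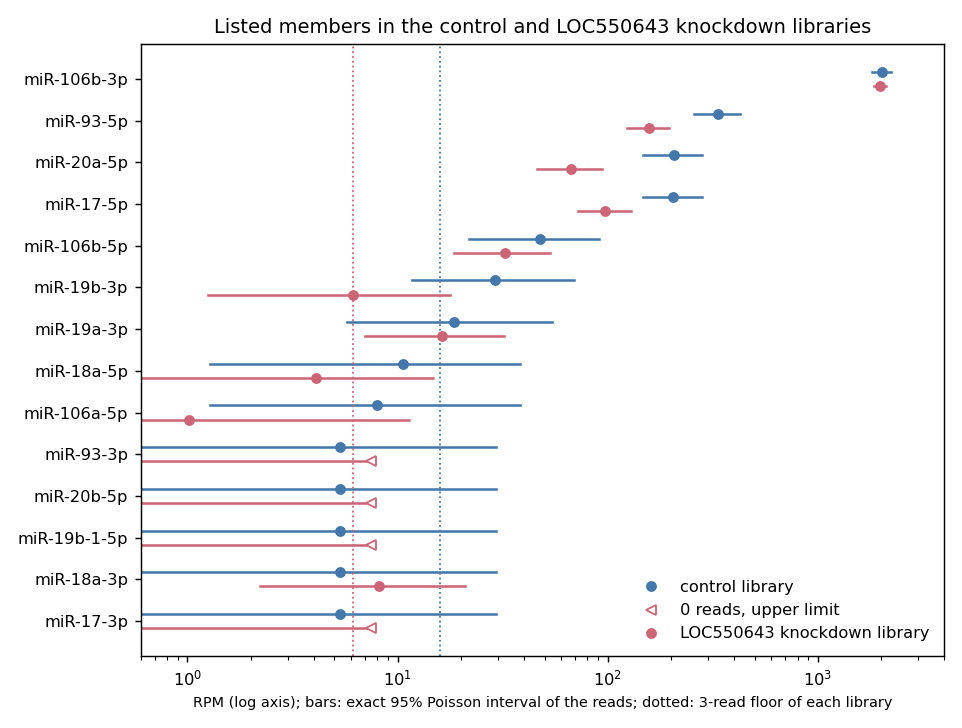
RPM of the 14 listed miRNAs on a log axis in the control (blue) and LOC550643 knockdown (red) libraries, 1 library each, with exact 95% Poisson intervals of the estimated reads, open triangles for the upper limit of 0 reads and dotted lines at the 3-read floors of 15.9 and 6.10 RPM. The intervals of both libraries are apart for miR-93-5p, miR-20a-5p and miR-17-5p, nearly coincide for miR-106b-3p, and overlap for the other 10.

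The plot of levels by miRNA orders the 14 by their control level and shows how quickly the intervals widen below about hsa-miR-106b-5p. The miR-19 miRNAs, known as the main oncogenic component of miR-17-92 in lymphoma, were already in this range. hsa-miR-19b-3p was at 29.1 RPM in the control (5.5 reads, 11.7 to 69.1) and 6.10 RPM after knockdown (3 reads, 1.26 to 17.8), a ratio of 0.210 with an interval of 0.0311 to 0.900. That interval rounds the 5.5 control reads up to 6, so a lower level of hsa-miR-19b-3p was not established. hsa-miR-19a-3p was at 18.5 RPM (3.5 reads, 5.77 to 54.2) and 16.3 RPM (8 reads, 7.03 to 32.1), a log2 ratio of -0.18 (-2.28 to 1.80). The RPM intervals of the libraries overlapped for both, and the miR-19 values were a small fraction of those of hsa-miR-17-5p and hsa-miR-20a-5p from miR-17-92.

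The miR-18 family was close to the limit of detection. hsa-miR-18a-5p had 2 reads in each library, 10.6 RPM and 4.07 RPM, the same number of reads at different depths, and no ratio is given. hsa-miR-18a-3p, with 1 control read (5.29 RPM) and 4 knockdown reads (8.14 RPM), was the 1 of the 14 that was higher after knockdown, a ratio of 1.54 with an interval of 0.152 to 75.8. The value of 8.14 RPM is under the control floor of 15.9 RPM, so a rise was not detectable. The remaining arms, hsa-miR-17-3p, hsa-miR-19b-1-5p and hsa-miR-93-3p, had 1 control read each and no knockdown read.

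Over all 14, 13 were lower after knockdown and 1 was higher, against 245 lower and 180 higher of all 425 listed miRNAs. More than 2-fold lower were 10 of the 14, against 27.3% of all 425 listed miRNAs, and 0 were more than 2-fold higher, against 17.9%. This count rests largely on single reads, since for 6 of these miRNAs neither library had more than 3 reads, and there a lone control read is worth 5.29 RPM and counted as more than 2-fold lower when the knockdown library has none. With more than 3 reads in both libraries, 6 of the 14 were left. All 6 had the lower value, against 127 of the 201 miRNAs that passed the same limit. Of the 6, 3 were more than 2-fold lower, against 10.9% of the 201, and 0 were more than 2-fold higher, against 3.48%. With a mean of at least 100 RPM, 3 of 4 were more than 2-fold lower, against 5.65% of 124, and 0 were higher, against 2.42%. The 3 were hsa-miR-20a-5p, hsa-miR-93-5p and hsa-miR-17-5p at both limits, and they ranked 3, 5 and 6 from the lowest log2 ratio of the 124. The limit of 100 RPM is on the mean of both libraries. Of these 3, hsa-miR-20a-5p and hsa-miR-17-5p were above 100 RPM in the control library only. The median log2 ratio was -0.80 over the 6 and -0.19 over the 201, and since the set was chosen with these values known the comparison is a description only.

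**Figure D2:**
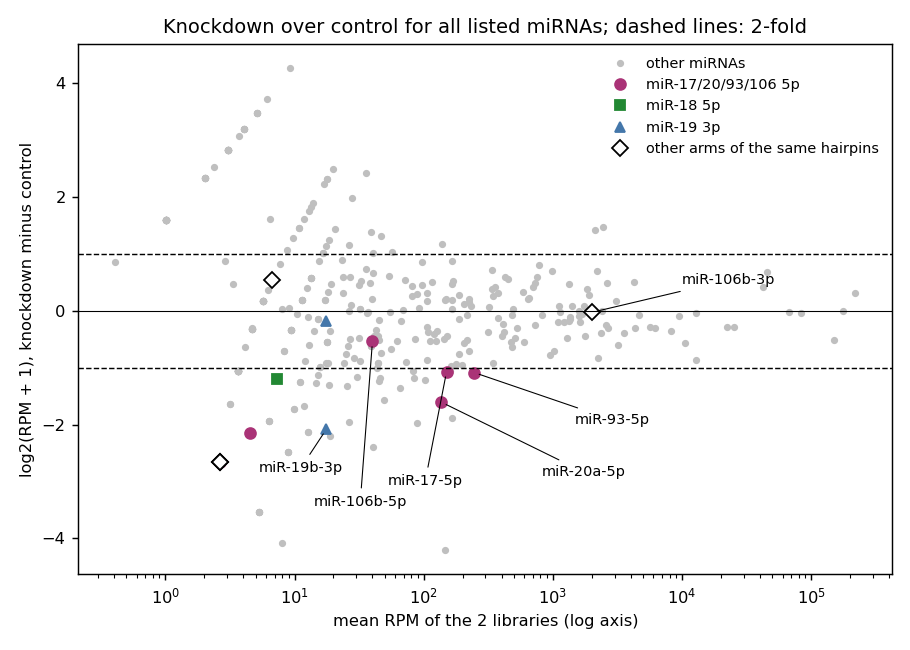
Difference of log2(RPM + 1), knockdown minus control, against the mean RPM of both libraries (log axis) for the 425 listed miRNAs, with the 5p miRNAs of seed AAAGUGC, miR-18 5p and miR-19 3p coloured, the other arms of their hairpins as open diamonds and dashed lines at 2-fold. At a mean of at least 100 RPM, miR-20a-5p, miR-93-5p and miR-17-5p lie below the lower line and miR-106b-3p lies at -0.03, while the lowest diamond and a circle hidden under it stand for 4 miRNAs with 1 control read and no knockdown read.

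The scaling matters for the smaller differences and for those close to 2-fold. The RPM values compare shares of a library, and median-of-ratios scaling, used instead of the total, raised the log2 ratios by 0.20, and by less at low values because of the pseudocount. Then 8 of the 14 were more than 2-fold lower, against 21.2% of 425. With a mean of at least 100 RPM it was hsa-miR-20a-5p alone, 1 of 4 against 3.23% of 124, while hsa-miR-93-5p at -0.89 and hsa-miR-17-5p at -0.87 were less than 2-fold lower. Under this scaling the sign turned for hsa-miR-106b-3p (0.17) and hsa-miR-19a-3p (0.01).

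Summed by seed, the AAAGUGC 5p family was lower after knockdown. The 6 listed miRNAs together were at 804 RPM in the control (152 reads, 681 to 943) and 354 RPM after knockdown (174 reads, 303 to 411), which is 2.27-fold lower, a log2 ratio of -1.18 (-1.51 to -0.86). This was 0.0804% of the control total and 0.0354% of the total after knockdown. The miR-19 3p family had a similar ratio with far fewer reads, 47.6 RPM (9 reads) against 22.4 RPM (11 reads), a log2 ratio of -1.06 with an interval of -2.50 to 0.36 that holds 0. Under median-of-ratios scaling the log2 ratios of the AAAGUGC and miR-19 families were -0.98 and -0.86, each less than 2-fold lower. The miR-18 5p family was hsa-miR-18a-5p alone, too low for a ratio. The share of miR-19 in the reads of the miR-19 and AAAGUGC families, a value that needs no scaling between libraries, was 5.59% (2.59% to 10.4%) in the control library and 5.95% (3.00% to 10.4%) after knockdown. A difference between these families in their ratio was therefore not detectable.

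Within the AAAGUGC family no difference in makeup was detectable at this depth. hsa-miR-93-5p held 41.4% of the family's reads in the control (63 of 152, exact binomial interval 33.5% to 49.7%) and 44.3% after knockdown (77 of 174, 36.7% to 52.0%). For hsa-miR-20a-5p the shares were 25.7% (18.9% to 33.4%) and 18.97% (13.4% to 25.6%). For hsa-miR-17-5p and hsa-miR-106a-5p together they were 26.3% (19.5% to 34.1%) and 27.6% (21.1% to 34.9%). The share of hsa-miR-106b-5p was 5.92% (2.74% to 10.9%) in the control library and 9.20% (5.35% to 14.5%) after knockdown. For each of these the intervals of the libraries overlapped, so the larger ratio of hsa-miR-20a-5p was not separated from those of hsa-miR-93-5p and hsa-miR-17-5p. The family was lower in both groups of clusters. Its miRNAs of miR-17-92 and miR-106a-363 together went from 423 RPM (80 reads) to 165 RPM (81 reads), a log2 ratio of -1.36 (-1.83 to -0.90), and those of miR-106b-25 from 381 RPM (72 reads) to 189 RPM (93 reads), a log2 ratio of -1.01 (-1.47 to -0.55).

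**Figure D3:**
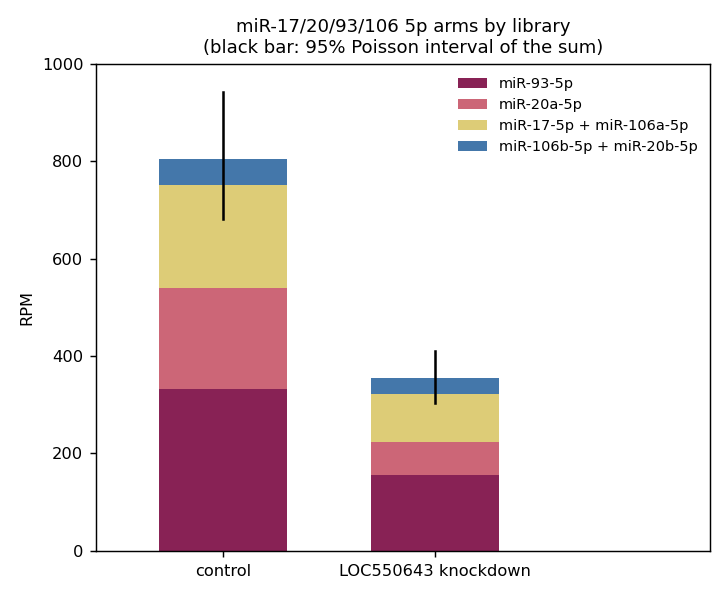
Summed RPM of the 5p arms with the seed AAAGUGC in the control and LOC550643 knockdown libraries, 1 library each, as stacked parts, with the exact 95% Poisson interval of the sum as a black line. miR-17-5p and miR-106a-5p are drawn together as 1 part, as are miR-106b-5p and miR-20b-5p. The sum is 804 RPM in the control and 354 RPM after knockdown, and each of the stacked parts is smaller after knockdown.

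The stacked plot of the family shows hsa-miR-93-5p as the largest part in both libraries. How the reads of near-identical miRNAs were assigned bears on some of these values. Among the 14, read numbers midway between whole reads were found only for hsa-miR-17-5p with hsa-miR-106a-5p, where 38.5 and 1.5 control reads and 47.5 and 0.5 knockdown reads add up to 40 and 48, and for hsa-miR-19a-3p with hsa-miR-19b-3p in the control library, where 3.5 and 5.5 add up to 9. These are the pairs that differ at 1 base, so the single values of hsa-miR-106a-5p, hsa-miR-19a-3p and hsa-miR-19b-3p are uncertain. The sum of hsa-miR-17-5p and hsa-miR-106a-5p, 212 RPM against 97.7 RPM, had a log2 ratio of -1.11 (-1.75 to -0.47), close to that of hsa-miR-17-5p alone.

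Taken by cluster, miRNAs with hairpins in miR-17-92 or in miR-106b-25 did not all have the same ratio. Those 8 of the 14 that come from miR-17-92, without the miR-92a arms and with hsa-miR-19b-3p counted here, went together from 484 RPM (392 to 597) to 198 RPM (162 to 243), a log2 ratio of -1.28 (-1.71 to -0.86). Its last hairpin gives hsa-miR-92a-3p, which has another seed (AUUGCAC) and another hairpin in miR-106a-363, and this miRNA was at 3814 RPM and 2516 RPM, a log2 ratio of -0.60 (-0.73 to -0.47). Counted within the library, hsa-miR-92a-3p held 90.2% (88.0% to 92.2%) of the control reads of hsa-miR-92a-3p, hsa-miR-17-5p and hsa-miR-20a-5p and 93.9% (92.5% to 95.2%) of the knockdown reads. These intervals do not overlap, and the share needs no scaling between libraries. It was chosen after the values had been seen and leaves out the miR-18a and miR-19 arms of miR-17-92. Reads of hsa-miR-92a-3p can also come from miR-106a-363, so the share does not compare miRNAs of a single transcript. In miR-106a-363, hsa-miR-106a-5p and hsa-miR-20b-5p had 2.5 control reads and 0.5 knockdown reads in sum. The last hairpin of that cluster gives hsa-miR-363-3p, which is outside the 14 and had a log2 ratio of -4.21 (-5.68 to -3.16), the lowest of the 124 whose mean was 100 RPM or more.

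**Figure D4:**
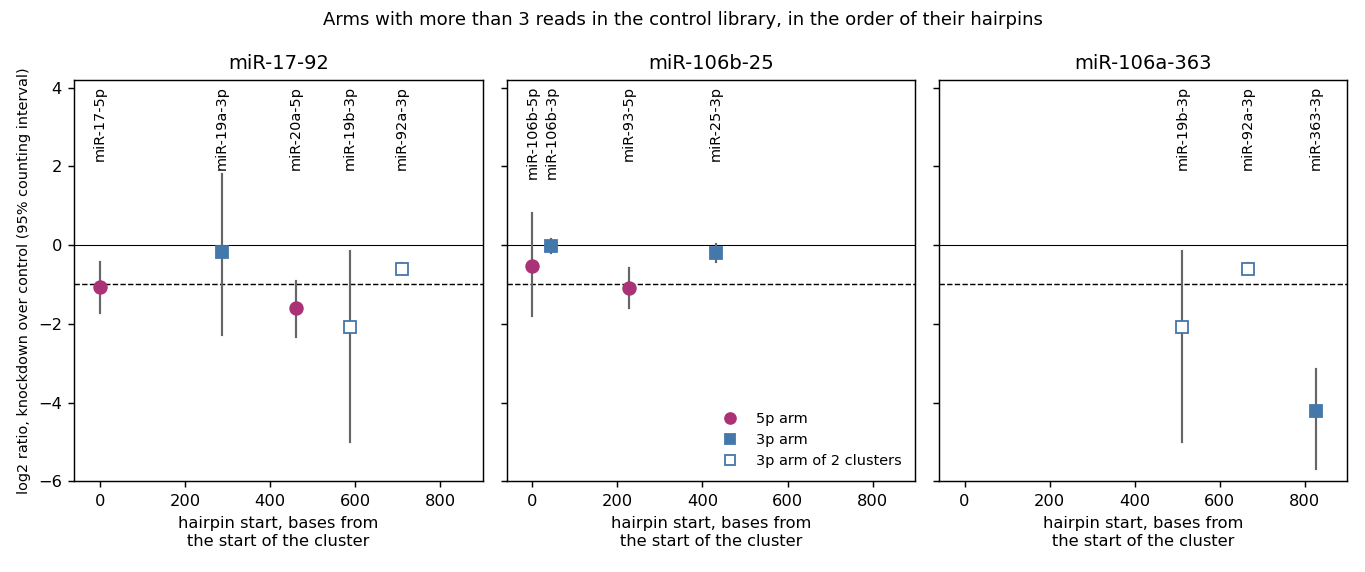
Log2 ratio of knockdown over control, with 95% counting intervals, for each arm with more than 3 reads in the control library, placed by the start of its hairpin in bases from the start of its cluster, with the arms of the miR-106b hairpin drawn side by side and a dashed line at 2-fold lower. In miR-106b-25, miR-93-5p is at -1.08, while its neighbours on either side, miR-106b-3p and miR-25-3p, are at -0.03 and -0.20, and open squares mark the miRNAs that have hairpins in 2 clusters and are drawn in both.

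The plot of ratios along the clusters shows different ratios inside miR-106b-25, where all hairpins lie in 1 intron. Those 4 of the 14 that come from this cluster, without the miR-25 arms, went together from 2396 RPM (2181 to 2628) to 2163 RPM (2035 to 2297), a log2 ratio of -0.15 (-0.31 to 0.01), and hsa-miR-106b-3p is the largest part of this sum. Its last hairpin gives hsa-miR-25-3p, which shares the seed of hsa-miR-92a-3p and was at 1164 RPM and 1015 RPM, a log2 ratio of -0.20 (-0.43 to 0.04). The other arm of that hairpin, hsa-miR-25-5p, had 1 control read (5.29 RPM) and 8 knockdown reads (16.3 RPM). With 1 control read it is not drawn, and its log2 ratio of 1.46 had an interval of -1.28 to 7.09. Under median-of-ratios scaling the sign turned for the sum (0.051) and for hsa-miR-25-3p (0.0019). hsa-miR-93-5p, from the hairpin between those of miR-106b and miR-25, held 9.35% of the control reads of the cluster (63 of 674, 7.26% to 11.8%) and 4.90% of the knockdown reads (77 of 1570, 3.89% to 6.09%). The intervals do not overlap, and this share rests on no scaling between libraries. hsa-miR-106b-3p held 56.4% (52.5% to 60.2%) and 61.8% (59.3% to 64.2%), hsa-miR-25-3p 32.6% (29.1% to 36.3%) and 31.8% (29.5% to 34.2%), and hsa-miR-106b-5p 1.34% (0.612% to 2.52%) and 1.02% (0.584% to 1.65%). For these other arms the intervals overlapped. Set against a single neighbour, hsa-miR-93-5p made up 14.2% (11.1% to 17.8%) of its reads and those of hsa-miR-106b-3p in the control library and 7.35% (5.85% to 9.11%) after knockdown, and with hsa-miR-25-3p in place of hsa-miR-106b-3p the shares were 22.3% (17.6% to 27.6%) and 13.4% (10.7% to 16.4%). These shares were chosen after the values had been seen.

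**Figure D5:**
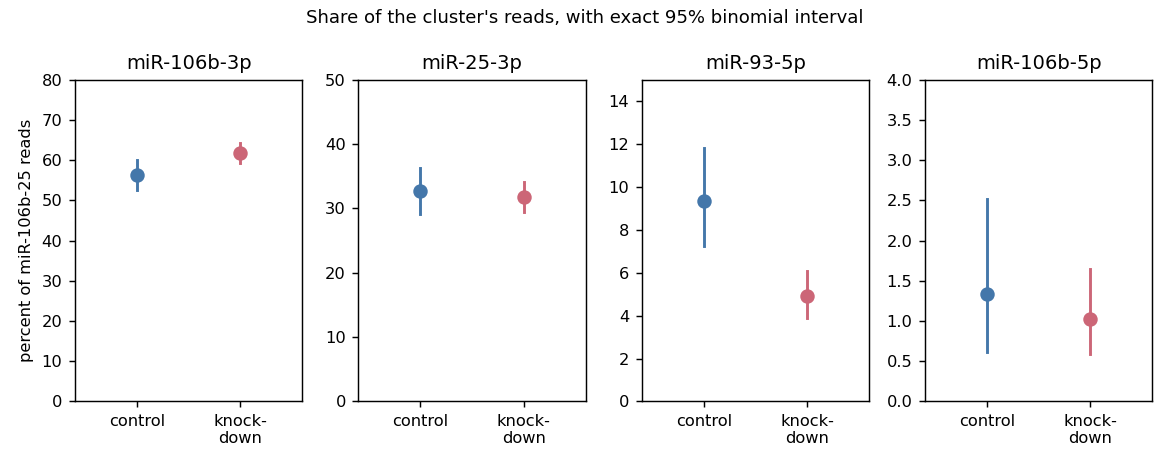
Share of the reads of the miR-106b-25 cluster, in percent with exact 95% binomial intervals, held by each of its 4 main arms in the control (blue) and LOC550643 knockdown (red) libraries, 1 library each, with a y axis of its own in each panel. The share of miR-93-5p is 9.35% in the control and 4.90% after knockdown with intervals apart, while those of the other 3 arms overlap.

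The arm shares within a hairpin differed between the libraries by less than their counting intervals. In the miR-106b hairpin the 3p arm, hsa-miR-106b-3p, held 97.7% of the control reads (380 of 389, 95.7% to 98.9%) and 98.4% of the knockdown reads (970 of 986, 97.4% to 99.1%), and the arm with the AAAGUGC seed, hsa-miR-106b-5p, held 2.31% and 1.62%. In the miR-93 hairpin the 5p arm held 98.4% of the control reads (63 of 64, 91.6% to 99.96%) and 77 of 77 knockdown reads, and the 0 reads of the 3p arm allow a share of up to 3.90%, taking 3 reads of the total as the limit of a count of 0 here and in the next hairpins. In the miR-17 hairpin the 5p arm held 39 of 40 control reads and 48 of 48 knockdown reads, with a 3p share of up to 6.25% after knockdown. The 3p arm of miR-20a had 0 of 39 and 0 of 33 reads, which allows up to 7.69% and 9.09%. In the miR-18a hairpin the 5p arm had 2 of 3 reads in the control library and 2 of 6 after knockdown, too few for a comparison.

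Base composition and sequence matches were looked at as further shared features. The GC content of the mature sequence was 39.1% for hsa-miR-20a-5p, 47.8% for hsa-miR-17-5p, 52.2% for hsa-miR-93-5p and 63.6% for hsa-miR-106b-3p, against quartiles of 40.9% and 59.1% over the 350 miRNAs with a sequence. Over the 109 of these whose mean was 100 RPM or more, which share both libraries, the log2 ratio and GC content had a Spearman rho of 0.13 and a Pearson r of 0.16 across miRNAs. The part of GC content in the lower values was not tested. The 3 isoforms of LOC550643, V1 to V3 (718, 581 and 476 nt), were searched on the sense strand for the reverse complement of bases 2 to 8. GCACTTT, for the AAAGUGC family, was found in none of them, and neither were GCACCTT for hsa-miR-18a-5p, TTTGCAC for the miR-19 family or CAGTGCG for hsa-miR-106b-3p. Among 116724 GENCODE transcripts of at least 718 bases, the first 718 bases held these motifs in 4.91%, 4.69%, 3.39% and 2.71%. The reverse complement of bases 2 to 7 alone was found in all 3 isoforms for hsa-miR-17-3p (CTGCAG) and hsa-miR-93-3p (CAGCAG). Both arms had 1 control read and no knockdown read. The other seeds of the 14 had no such match. Bases 2 to 8 of the LOC550643 siRNAs and of the scrambled siRNA, on either strand, equalled the seed of none of the 14 miRNAs.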

How the data were processed

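Small RNA libraries were made with the NEBNext small RNA kit and sequenced with MiSeq V2 reagents per the study's methods. The labels name another version of the MiSeq reagents and a HiSeq instrument. The submitters' processing notes name FastQC, cutadapt and the build hg38. The authors used a tool of their own to assign reads to miRNAs, and the deposited values are RPM, reads scaled to a fixed total per sample. The aligner and the miRNA release are not given in the sources used here. Each library was rescaled to 1000000 RPM, a missing miRNA was set to 0, and log2 ratios used a pseudocount of 1 RPM. Estimated reads are RPM divided by the RPM of 1 read, taken from low values. Low values, those of at most 20 reads, were whole within 0.1 read for 92.9% of 253 control values and 91.5% of 224 knockdown values, too few for a count test. Reads were rounded to whole numbers, with values midway between them rounded up, for the intervals (Poisson, and Clopper-Pearson for ratios and shares). The calculation was tested on simulated data. With 1 library per condition there was no test.

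The miRNAs named are those with the stems given, their cluster mates, and any other with the same seed. These members and lists were chosen with earlier results of these data known. Scaling, pseudocount and low-value limits were varied. Hairpins and host genes came from GENCODE 29. Python 3.11.15, numpy 2.4.6, pandas 2.3.3, scipy 1.17.1 and matplotlib 3.10.9 were used.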

Additional observations from a re-analysis of the deposited data

How the results depend on the processing

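No paired analysis was possible because there was 1 library for control and 1 for knockdown, and no library could be left out. The number of the 14 miRNAs more than 2-fold lower, 10, was 4 with a pseudocount of 10 RPM, 6 among those above 0 in both libraries, 3 with more than 3 reads in both and 3 where the mean was 100 RPM or more, since each of these settings removes or damps miRNAs with few reads. The log2 ratio of the 4 of the 14 that come from miR-106b-25, -0.15, was 0.051 under median-of-ratios scaling and 0.041 under 75th-percentile scaling, which shift log2 ratios by 0.20 and 0.19, and by less at low values. Of 62 alternatives over 10 single miRNAs, 58 stayed within the counting interval. The 4 outside it were hsa-miR-106b-3p (0.17 and 0.16) and hsa-miR-92a-3p (-0.40 and -0.41) under these scalings. The sum over all 14, of which hsa-miR-106b-3p is the largest part, had a log2 ratio of -0.29 (-0.44 to -0.14). Under these scalings it was -0.094 and -0.104, outside that interval. Without hsa-miR-106b-3p the sum had a log2 ratio of -1.18, and of -0.98 under median-of-ratios scaling. In all, 7 log2 ratios changed sign, all under these scalings, and for hsa-miR-106b-3p, hsa-miR-19a-3p, hsa-miR-25-3p and the miR-106b-25 sum only. The 28 alternatives for arm shares all stayed within their intervals. The miR-18 5p family and the sum of hsa-miR-106a-5p and hsa-miR-20b-5p had at most 3 reads in both libraries, so their ratios were not recomputed. The values for cluster mates, for the sum over all 14 and for the near-identical pairs were added after seeing the data.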
